A study of Homo sapiens with 6 samples.

Results

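F-box proteins are the parts of SCF ubiquitin ligases that choose what is destroyed, and this section describes how their transcripts, with those of the core of the ligase, differed between T47D cells given the PI3 kinase inhibitor GDC-0941 and control cells. Members were taken by symbol: every gene now named FBXO, FBXL or FBXW and a number, with SKP1, SKP2, CUL1, RBX1 and BTRC added and CCNF left out. This gave 61 genes among the 19775 measured, namely 33 FBXO, 15 FBXL and 8 FBXW genes and the 5 added by name. Other genes of these families are not analysed here. T47D is an established oestrogen receptor positive line of human breast cancer. The 3 treated arrays carry RNA from cells given GDC-0941, an inhibitor of class I PI3 kinases, for 6 hours at a dose labelled 1 mM, a unit that is repeated as written and that the arrays cannot check. The 3 control arrays carry RNA from cells whose agent is labelled none, without a time or a solvent, so each difference may include the effect of a solvent. Both groups grew in medium with serum, and nothing in the labels states whether the replicates are separate cultures.

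In an SCF ligase the cullin CUL1 is a rigid scaffold. It holds the RING protein RBX1, which recruits the ubiquitin-loaded E2 enzyme, at one end and the adaptor SKP1 at the other, and SKP1 docks an interchangeable F-box protein. FBXW proteins bind substrates through WD40 repeats and FBXL proteins through leucine-rich repeats, while FBXO proteins carry other domains. The ligase works when NEDD8 is attached to CUL1, and the COP9 signalosome takes NEDD8 off again. In dividing cells SCF ligases remove CDK inhibitors, cyclins and transcription factors. PI3 kinase bears on them through AKT, which holds the FOXO transcription factors out of the nucleus. FBXO32 (atrogin-1) is a classical FOXO target in wasting muscle.

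All values are log2 signals of the deposited RMA table, in which background-corrected arrays are brought to one distribution, so each difference is set against all the rest of the array. A gene is represented by its probe set (the array's group of oligonucleotides for a transcript) with the highest mean level. It was called at an adjusted p under 0.05 in limma over all 19775 genes. Across probe sets, pairs of arrays had r = 0.9970 to 0.9983 in a group and 0.9917 to 0.9942 across groups. The 7 markers of luminal cells (ESR1, PGR, GATA3, FOXA1, KRT8, KRT18, EPCAM) had control levels of 11.62 to 14.34, against a median of 8.20 over all genes. Of 6 markers of other cell types, PTPRC was at 6.23, KRT14 at 6.25, KRT5 at 8.08, VIM at 8.20, PECAM1 at 9.42 and COL1A1 at 10.40 in controls. COL1A1 rose by 0.56 and the other 5 were not called. Of the 7 luminal markers 2 were called higher and 2 lower, where 44.6% of all genes above the median level were called. The largest changes among these 7 were in FOXA1 (0.53), PGR (0.42) and KRT8 (-0.23). The part of these markers in the results below was not tested.

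Treatment moved members in both directions in equal number. FBXO32 rose most, 2.31-fold, followed by FBXO8, FBXO38 and FBXO25 (1.50-fold, 1.46-fold and 1.34-fold). FBXL6, FBXO22 and the scaffold CUL1 fell most (1.48-fold, 1.44-fold and 1.41-fold lower). Of the 61 members 13 were called higher and 13 lower, and 35 did not pass. The called share was 42.6% of members against 27.8% of all genes. For each direction it was 21.3% of members, against 12.1% of all genes called higher and 15.6% called lower. Members lay mostly on brighter probe sets, where calls are more frequent. Above the median level lay 44 members, and 52.3% of these were called against 44.6% of all genes above that level. By direction, 25% of these members were called higher and 27.3% lower, against 18.8% and 25.8% of all genes above that level. The share called lower was thus close to that of all genes at such levels. The median log2 difference was 0.02 over members and -0.02 over all genes. The 3 treated arrays all lay above the controls in 16 of the 61 members and all below in 18, and 41.5% of all genes showed such a separation in either direction. Above the median level they lay all above in 15 of the 44 members and all below in 15. Of the 9887 genes above that level, 2576 lay all above and 3506 all below. In RNA from whole cultures, fewer cells with a transcript and less of it per cell cannot be told apart.

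**Figure D1:**
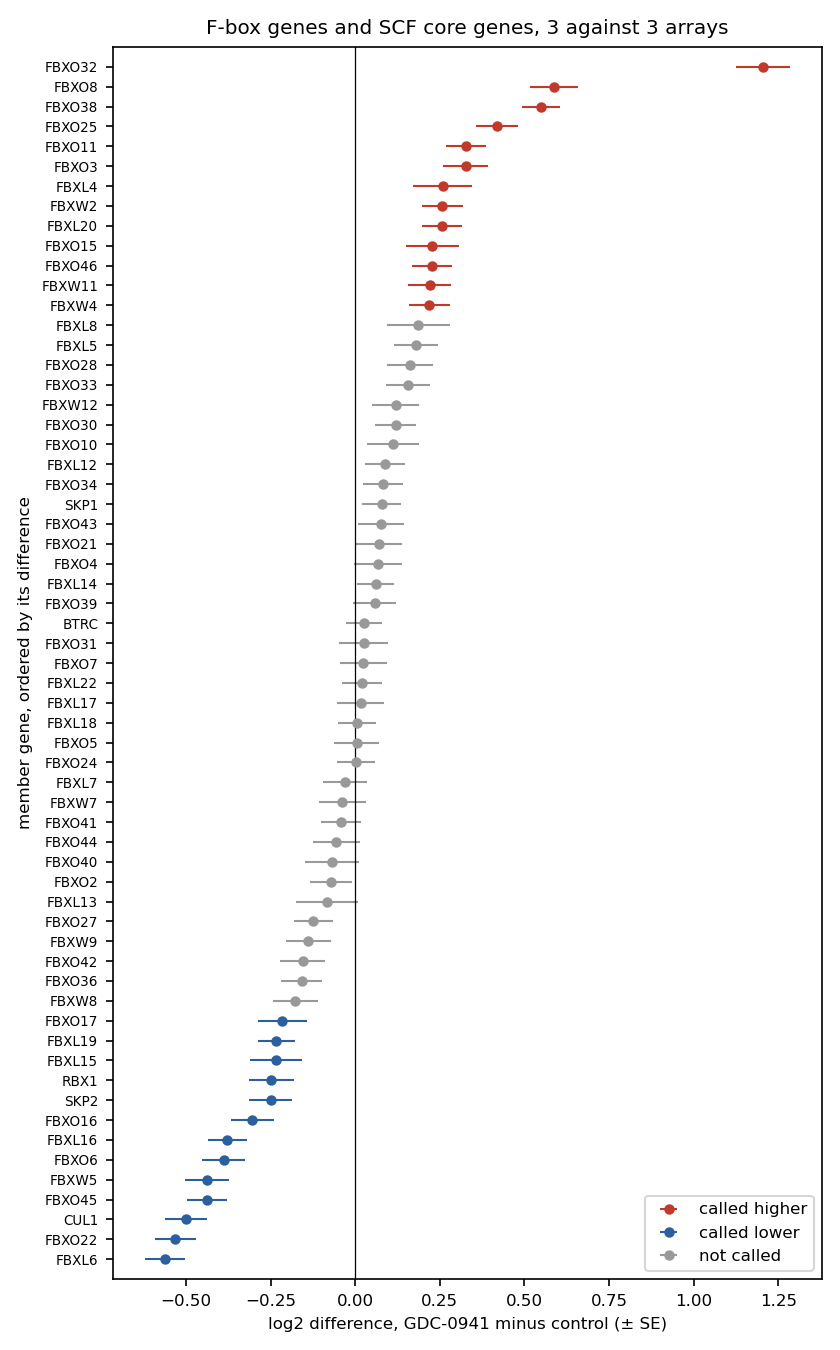
Log2 difference between GDC-0941 and control (x axis, ± SE, 3 arrays per group) for each of the 61 members (y axis, ordered by the difference), coloured by the limma call. FBXO32 stands at 1.20, apart from the next member, FBXO8, at 0.59, and the falls end with FBXL6 at -0.56.

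The balance between rises and falls depends on the reference, and which reference is nearer to the RNA of the cells was not tested. The control probe sets used here were read from the same RMA values as the genes. With each array centred on its 18 hybridisation control probe sets, which read transcripts added before hybridisation (below, spike-in centring), 26 members were called higher and 5 lower, and the median went from 0.02 to 0.19 in members and from -0.02 to 0.15 in all genes. Calls among all genes then were 86.4% higher, against 43.7% with the deposited normalization. All 13 rises were called in both. The falls called in both were FBXL6, FBXO22, CUL1, FBXO45 and FBXW5. The falls of SKP2, RBX1, FBXO6, FBXL16, FBXO16, FBXL19, FBXL15 and FBXO17 were not called with that centring, where their differences were -0.22 to -0.05. Among members, the adjusted p in limma with that centring followed the size of the difference. It was 0.0452 for FBXO4 (0.24), 0.0523 for FBXL14 (0.23), 0.0658 for FBXO6 (-0.22) and 1.3e-42 for FBXO32 (1.37). Calls with spike-in centring, here and below, thus act as a cut on size. They hardly weigh a gene's own spread between arrays.

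FBXO32, the muscle atrophy F-box protein, had levels of 10.95, 10.71 and 10.80 on the treated arrays and 9.50, 9.60 and 9.74 on the controls. The lowest treated array lay well above the highest control. The log2 difference was 1.20 ± 0.08 (SE; adjusted p = 1.45e-06 in limma), the 13th largest rise of all 19775 genes. Of its 7 probe sets 6 were called higher in the fit over all 54613 probe sets, in which 18.8% of probe sets were called. Their differences were 1.27 (225328_at), 1.20 (225803_at), 1.00 (225345_s_at), 0.98 (241762_at), 0.83 (225801_at) and 0.80 (241763_s_at). The seventh, 232729_at, read 7.36, 7.32 and 7.29 under GDC-0941 and 7.29, 7.15 and 7.27 in controls, a difference of 0.08 ± 0.06 (SE; adjusted p = 0.428 in limma). Which part of the transcript it reads was not tested.

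**Figure D2:**
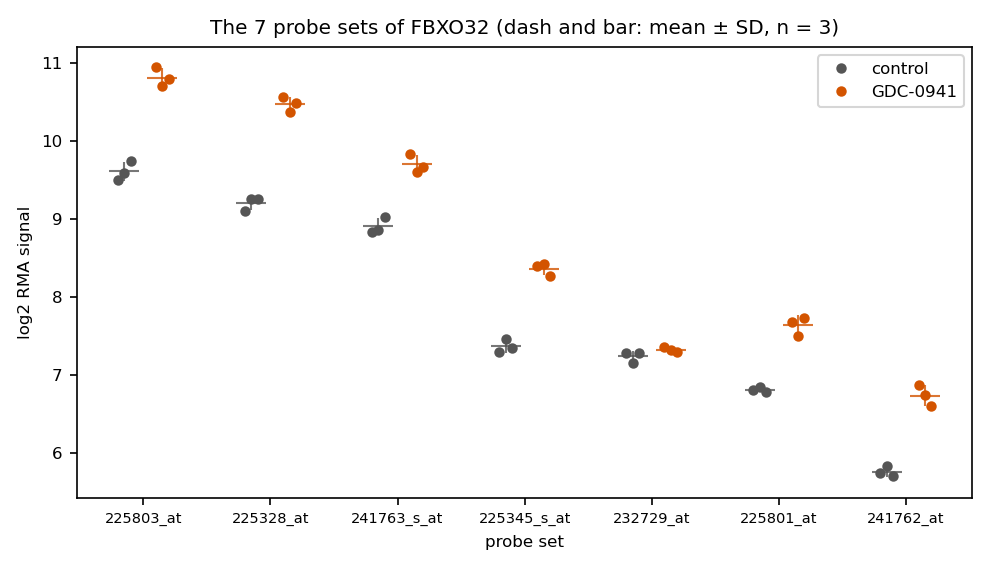
Log2 RMA signal (y axis) of the 7 probe sets of FBXO32 (x axis, ordered by mean level) on 3 control and 3 GDC-0941 arrays, where each point is an array and the dash and bar are the mean ± SD. In 6 probe sets every treated array lies above every control by a wide gap, and in 232729_at the groups differ by 0.08.

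FBXO25, the closest paralog of FBXO32, rose as well. It read 9.71, 9.62 and 9.72 under GDC-0941 and 9.21, 9.23 and 9.36 in controls, a log2 difference of 0.42 ± 0.06 (SE; adjusted p = 0.00037), with 1 probe set. Other F-box proteins linked to muscle wasting did not pass: FBXO30 (MUSA1) differed by 0.12, FBXO21 (SMART) by 0.07 and FBXO40, a muscle protein that targets IRS1, by -0.07. Of this group of 5, 2 rose and none fell, with a median of 0.12, where 12.1% of all genes were called higher. With spike-in centring 4 of the 5 were called higher, but the number of all genes called higher also went from 2398 to 5688. The difference between FBXO32 and the others of the group was not tested.

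The other large rises were in FBXO genes with different partners. FBXO8, which joins an F-box to a Sec7 domain of the kind that activates ARF proteins, read 9.38, 9.16 and 9.24 under GDC-0941 and 8.72, 8.73 and 8.58 in controls. Its log2 difference was 0.59 ± 0.07 (SE; adjusted p = 8.42e-05), and its second probe set gave 0.61. FBXO38, first known as a coactivator of KLF7, read 10.29, 10.19 and 10.17 against 9.66, 9.66 and 9.68, a log2 difference of 0.55 ± 0.06 (SE; adjusted p = 3.22e-05). All 3 of its probe sets were called higher, the other two with smaller differences of 0.29 and 0.28. In FBXO8 and FBXO38 the treated and control arrays were well apart. FBXO3 read 10.38, 10.26 and 10.25 against 9.99, 9.87 and 10.04, and rose by 0.33 ± 0.07 (SE; adjusted p = 0.00274). Only 2 of its 6 probe sets were called, both higher, and the mean of all 6 was not called (0.09, adjusted p = 0.195 in limma).

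FBXO11, which targets BCL6 and the replication licensing regulator CDT2, gave opposite readings. Its brightest probe set, 222119_s_at, read 9.46, 9.40 and 9.46 under GDC-0941 and 9.18, 9.13 and 9.03 in controls, a rise of 0.33 ± 0.06 (SE; adjusted p = 0.00148). A second, 203255_at, fell by 0.34 (adjusted p = 0.0203 over all probe sets), and the third, 219208_at, differed by -0.21 without passing. FBXO11 was the 1 member with probe sets called in both directions. Its direction turned when probe sets without a mark for several transcripts were taken first (-0.34, adjusted p = 0.0124 in limma) or when its probe sets were averaged (-0.07, adjusted p = 0.395). Which direction the gene shows thus depends on the probe set.

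Among the smaller rises, FBXL20, a presynaptic protein that targets RIM1, rose by 0.26 on its brightest probe set and was called higher on all 5, by up to 0.79 (232412_at). Its chosen probe set thus gave nearly the smallest of its differences. FBXW2, known for the degradation of GCM1, rose by 0.26, but none of its other 4 probe sets passed and their differences were -0.14 to 0.01. It was not called with unmarked probe sets first (-0.04, adjusted p = 0.773). FBXO46 rose by 0.23, FBXW4 (dactylin) by 0.22 and FBXO15, a marker of embryonic stem cells, by 0.23. FBXL4, a mitochondrial protein that restrains mitophagy, rose by 0.26 on its chosen probe set, with overlapping groups. Its other probe sets gave -0.14 and -0.10, and none of the 3 was called in the fit over all probe sets. The calls of FBXL20 and FBXW2 were kept in all 6 fits that left out an array. That of FBXO46 was lost without treated replicate 3 (adjusted p = 0.0516), and that of FBXW4 without treated replicate 3 (0.0644) or control replicate 1 (0.0586). The call of FBXO15 was lost without treated replicate 1, 2 or 3 or control replicate 3 (adjusted p 0.077 to 0.167), and that of FBXL4 without treated replicate 1 or 3 or control replicate 1 or 2 (0.0608 to 0.169).

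In the core of the ligase the scaffold and the RING protein were lower and the adaptor was not called. CUL1 read 8.97, 8.83 and 8.94 under GDC-0941 and 9.39, 9.37 and 9.48 in controls, a fall by 0.50 ± 0.06 (SE; adjusted p = 0.000106). The groups did not overlap on this probe set, 207614_s_at. The other probe set of CUL1, 238509_at, read 7.59, 7.53 and 7.42 against 7.44, 7.61 and 7.53, a difference of -0.02 with overlapping groups, so the fall rests on 1 of 2 probe sets. RBX1 read 11.24, 11.02 and 11.11 under GDC-0941 and 11.31, 11.39 and 11.41 in controls, a fall by 0.25 ± 0.07 (SE; adjusted p = 0.0152). Its groups were close, and the call was lost without treated replicate 2 (adjusted p = 0.0549), treated replicate 3 (0.053) or control replicate 2 (0.0543) and with spike-in centring (-0.08, adjusted p = 0.518). SKP1 read 13.58, 13.60 and 13.59 against 13.57, 13.53 and 13.44, a difference of 0.08 (95% interval -0.05 to 0.20; adjusted p = 0.37). None of the 4 probe sets of SKP1 passed. With spike-in centring SKP1 was called higher (0.25, adjusted p = 0.0352).

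**Figure D3:**
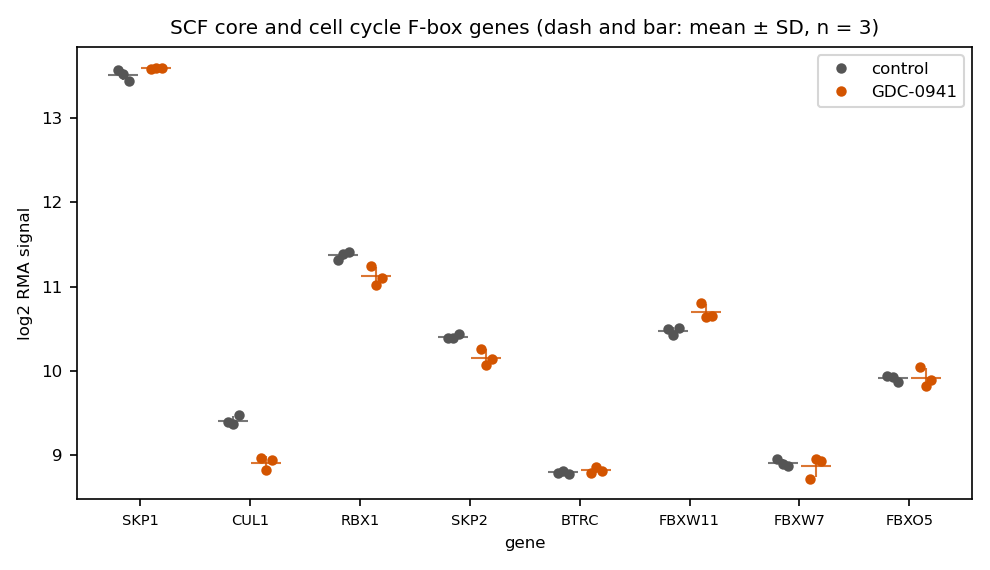
Log2 RMA signal (y axis) of the SCF core genes and of F-box genes of the cell cycle (x axis) on 3 control and 3 GDC-0941 arrays, where each point is an array and the dash and bar are the mean ± SD. Points are to be compared within a gene: CUL1, RBX1 and SKP2 are lower after treatment, FBXW11 is higher, and BTRC, FBXW7 and FBXO5 overlap between groups.

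Of 10 F-box genes of the cell cycle, 2 were called higher (FBXO11 and FBXW11) and 1 lower (SKP2), with a median of 0.04, where 27.8% of all genes were called. The counts were 1 higher and 2 lower with unmarked probe sets first, and 1 higher and 1 lower without treated replicate 1 or control replicate 2. They were 4 higher and 0 lower with spike-in centring, where the number of all genes called higher also went from 2398 to 5688. SKP2, which with the cofactor CKS1B marks the CDK inhibitor p27 for destruction, read 10.26, 10.07 and 10.14 under GDC-0941 and 10.39, 10.40 and 10.44 in controls. It fell by 0.25 ± 0.06 (SE; adjusted p = 0.0102). Its other probe sets also gave negative differences. On 210567_s_at SKP2 read 8.39, 8.20 and 8.33 against 8.79, 8.91 and 9.12, a fall by 0.63 (adjusted p = 0.000426 over all probe sets), and 203626_s_at differed by -0.21 (adjusted p = 0.116). The fall of SKP2 was thus larger on 210567_s_at than on its chosen probe set. With spike-in centring the chosen probe set was not called (-0.08, adjusted p = 0.505).

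BTRC and FBXW11, the paralogs beta-TrCP1 and beta-TrCP2 that recognise phosphorylated IkappaB, beta-catenin and DEPTOR, gave different values. FBXW11 read 10.81, 10.64 and 10.65 under GDC-0941 and 10.49, 10.43 and 10.51 in controls, a rise of 0.22 ± 0.06 (SE; adjusted p = 0.0217). That call was lost without treated replicate 1 (adjusted p = 0.0592) or control replicate 2 (0.0921). The other probe set of FBXW11 differed by 0.17 and was not called in the fit over all probe sets. BTRC read 8.79, 8.87 and 8.82 against 8.80, 8.82 and 8.78, a difference of 0.03 (95% interval -0.09 to 0.14; adjusted p = 0.789), and none of its 5 probe sets passed. The difference between the paralogs was not tested. FBXW7, which targets cyclin E, MYC and NOTCH1, read 8.73, 8.96 and 8.94 against 8.96, 8.90 and 8.87, a difference of -0.04 (95% interval -0.19 to 0.12; adjusted p = 0.758). Treated replicate 1 was its lowest array and the groups overlapped. Another probe set of FBXW7, 229419_at, fell by 0.39 (adjusted p = 0.0152 over all probe sets) while its other two did not pass.

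FBXO5 (EMI1), the inhibitor of the anaphase-promoting complex, read 10.05, 9.82 and 9.89 under GDC-0941 and 9.94, 9.93 and 9.88 in controls. Its difference was 0.0039 (95% interval -0.14 to 0.15; adjusted p = 0.978), with the control arrays inside the range of the treated ones. FBXO43, its paralog known from oocytes, differed by 0.08, FBXO4 by 0.07, FBXL14, which targets SNAI1, by 0.06 and FBXO31, linked to cyclin D1, by 0.03, and none of these passed.

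Among F-box genes, FBXL6, FBXO22, FBXO45 and FBXW5 had the largest falls on the chosen probe sets. FBXL6 read 9.15, 9.19 and 9.28 under GDC-0941 and 9.74, 9.75 and 9.82 in controls, a fall by 0.56 ± 0.06 (SE; adjusted p = 3.36e-05). Its second probe set, 239416_at, differed by -0.21 with overlapping groups and was not called (adjusted p = 0.103 over all probe sets). FBXO22, which targets the histone demethylase KDM4A, read 9.69, 9.57 and 9.63 against 10.17, 10.09 and 10.23 and fell by 0.53 ± 0.06 (SE; adjusted p = 6.53e-05). All 5 of its probe sets gave negative differences, and 2 were called. FBXO45, which works in neurons with the ligase MYCBP2 in place of CUL1, read 10.82, 10.66 and 10.77 against 11.19, 11.17 and 11.21, with 3 of 3 probe sets called lower. FBXW5, which also serves as a receptor of CUL4 ligases for TSC2, read 10.10, 9.91 and 10.07 against 10.44, 10.45 and 10.51. Both FBXO45 and FBXW5 fell by 0.44 ± 0.06 (SE), with adjusted p of 0.000191 and 0.000342. In FBXL6, FBXO22, FBXO45 and FBXW5 no treated array reached the lowest control.

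All 5 genes of the F-box family named for sugar binding had negative differences, and 2 of them were called. Some proteins of this family recognise N-glycans on misfolded glycoproteins. Of all 19775 genes, 10899 had negative differences and 15.6% were called lower. FBXO6 read 9.54, 9.36 and 9.38 under GDC-0941 and 9.78, 9.84 and 9.83 in controls, a fall by 0.39 ± 0.06 (SE; adjusted p = 0.000718). FBXO17 fell by 0.22 (adjusted p = 0.0449), a call kept when treated replicate 3 was left out and lost without any other single array (adjusted p 0.0685 to 0.142). FBXO27 differed by -0.12, FBXO2 by -0.07 and FBXO44 by -0.06 without passing. The median of the 5 was -0.12. With spike-in centring none of the 5 was called: FBXO6 was at -0.22 (adjusted p = 0.0658), FBXO17 at -0.05, and FBXO44, FBXO2 and FBXO27 turned positive, at 0.11, 0.10 and 0.05.

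The remaining falls were FBXL16 (by 0.38, with a second probe set at -0.27 that was also called), FBXO16 (by 0.30), FBXL15, which targets SMURF1 (by 0.23), and FBXL19, which carries a CXXC domain for CpG islands (by 0.23). The call of FBXL15 was lost without treated replicate 2 (adjusted p = 0.145), treated replicate 3 (0.0659) or control replicate 3 (0.15). FBXL5, the iron sensor that targets IREB2, differed by 0.18 (adjusted p = 0.059), while its other probe set, 209005_at, gave -0.09. FBXO7, mutated in a form of parkinsonism, differed by 0.02. The other uncalled members were FBXL7, FBXL8, FBXL12, FBXL13, FBXL17, FBXL18, FBXL22, FBXO10, FBXO24, FBXO28, FBXO33, FBXO34, FBXO36, FBXO39, FBXO41, FBXO42, FBXW8, FBXW9 and FBXW12. Their differences ran from -0.18 (FBXW8) to 0.19 (FBXL8).

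Probe sets of a member often disagreed in size. Of the 151 probe sets that name a member, 26 were called higher and 21 lower (31.1%, against 18.8% of all probe sets). The 18.8% includes probe sets that name several genes or none, and these shares were not matched for level. FBXO32 holds 6 of the 26, so probe sets of one gene are counted separately. Among the 15 called members with several probe sets, 9 had at least 2 called in the direction of the gene, and 5 of them had every probe set called (FBXL16, FBXL20, FBXO38, FBXO45 and FBXO8). The reverse also occurred: 5 uncalled members (FBXL18, FBXO28, FBXO33, FBXO42 and FBXW7) had a called probe set. FBXO33 rose by 0.40 on 226970_at but differed by 0.16 on its chosen probe set. FBXL18 fell by 0.31 (227500_at) and 0.28 (215068_s_at) on 2 of 6 probe sets, while the brightest gave 0.0064.

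Promoter sequences were compared because FOXO factors act below AKT and E2F factors act with the cell cycle. RefSeq windows (GRCh38.p14, 250 bases before to 50 after a start, at times several per gene) matched 47 members by symbol. The FOXO core GTAAACA, searched on both strands, was in 1 of the 47 (2.13%), FBXO8, and in 3.76% of 15384 tested genes. By call, it was in 1 of 10 members called higher, 0 of 8 called lower and 0 of 29 not called. Among all tested genes with a window it was in 6.57% of those called higher and 2.5% of those called lower. FBXO32 is among the members without a window and was not searched. The E2F letters TTCCCGC or TTCGCGC or TTGCCGC or TTGGCGC, on both strands, were in 14 of the 47 members (29.8%) and in 20.4% of the tested genes. These spellings differ from each other inside the same frame and do not overlap the FOXO core. Of the members with a window, E2F letters were in 4 of 8 called lower (CUL1, FBXL19, FBXO17 and FBXO45), 2 of 10 called higher (FBXO15 and FBXW4) and 8 of 29 not called. Among all tested genes with a window they were in 28.0% of those called lower and 23.8% of those called higher. Such a match describes letters and shows no binding. The 3 windows below are those of the risen member with the FOXO core and of the members with E2F letters that fell most, printed 5' to 3' in the direction of the gene as the 250 bases before the start, with the match in capitals.
FBXO8 (chr4:174283668-174283917, minus strand): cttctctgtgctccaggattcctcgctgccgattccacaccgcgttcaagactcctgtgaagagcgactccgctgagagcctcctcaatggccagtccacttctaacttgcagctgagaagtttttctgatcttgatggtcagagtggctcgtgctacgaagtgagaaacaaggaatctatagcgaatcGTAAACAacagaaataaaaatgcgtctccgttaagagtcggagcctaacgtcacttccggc
CUL1 (chr7:148698395-148698644, plus strand): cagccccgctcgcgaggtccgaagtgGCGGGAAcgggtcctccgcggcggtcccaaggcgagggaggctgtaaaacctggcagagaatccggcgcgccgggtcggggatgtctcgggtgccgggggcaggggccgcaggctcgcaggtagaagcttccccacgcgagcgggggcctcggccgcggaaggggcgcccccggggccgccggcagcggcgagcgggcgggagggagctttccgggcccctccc
FBXO45 (chr3:196568410-196568659, plus strand): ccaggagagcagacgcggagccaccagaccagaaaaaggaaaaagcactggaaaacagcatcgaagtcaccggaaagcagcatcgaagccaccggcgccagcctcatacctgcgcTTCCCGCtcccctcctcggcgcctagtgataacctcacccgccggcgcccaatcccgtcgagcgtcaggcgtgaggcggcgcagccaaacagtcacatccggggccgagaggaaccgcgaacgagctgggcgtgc
The FOXO core of FBXO8 lies 61 bases before the start of the gene. The E2F letters start 224 bases before the start in CUL1, on the reverse strand, and 135 bases before it in FBXO45.

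Genes that switch cullin ligases on and off were lower more often than higher. Of 23 measured genes of neddylation and cullin-RING assembly, 12 were called lower and none higher, against 15.6% of all genes called lower, with a median of -0.18. Of the 23, 19 lay above the median level, where 25.8% of all genes were called lower. UBE2F, a NEDD8-conjugating enzyme, fell by 0.57, DCUN1D5, which helps NEDD8 onto cullins, by 0.52 and NAE1, a subunit of the NEDD8-activating enzyme, by 0.47. The count was 9 to 13 lower when single arrays were left out. It became 3 lower and 2 higher, with a median of -0.0074, with spike-in centring. CAND1, which exchanges F-box proteins on CUL1, differed by -0.13 (adjusted p = 0.125). The list was chosen with earlier results on these arrays known, so its direction is a description.

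**Figure D4:**
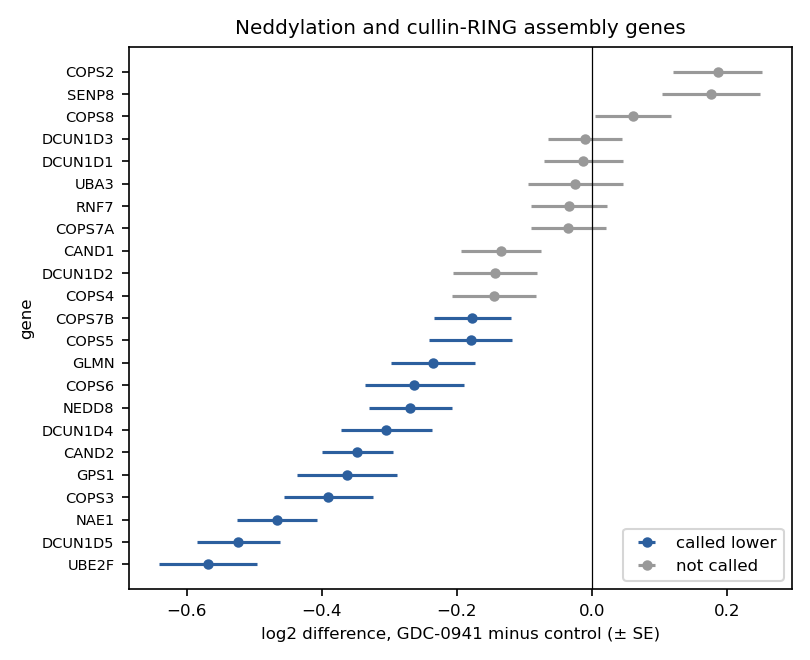
Log2 difference between GDC-0941 and control (x axis, ± SE, 3 arrays per group) for 23 genes of neddylation and cullin-RING assembly (y axis, ordered by the difference). The 12 genes called lower run from -0.57 (UBE2F) to -0.18 (COPS7B), and with spike-in centring only 3 were called lower.

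Among 7 other cullins CUL4B rose by 0.75 (adjusted p = 1.12e-05) and the others were not called. CDC34, the E2 enzyme that builds chains on SCF substrates, fell by 0.41 (adjusted p = 0.000193), and UBE2G1 rose by 0.20, with 4 of 7 listed E1 and E2 genes measured. The call of UBE2G1 was lost without treated replicate 1 or 3 or any one of the controls. CKS1B, the cofactor of SKP2, differed by -0.08 (adjusted p = 0.353). Of F-box proteins with other names, KDM2A rose by 0.25, a call lost when the probe sets of a gene were averaged. KDM2B fell by 0.19, a call lost without treated replicate 2 or 3 or any one of the controls and with spike-in centring. CCNF differed by -0.16 (adjusted p = 0.188).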

How the data were processed

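RNA of 6 samples, 3 per group, was hybridised to oligonucleotide arrays. The authors deposited log2 signals processed with RMA, the one tool in the submitters' processing notes; neither its version nor the chip definition is stated in those notes, and the scale was read from the values (3.00 to 14.81). RMA gives no detection call. Of 54675 probe sets, 62 were manufacturer's controls, 41091 named 1 gene, 1801 several and 11721 none. Symbols were updated through Entrez identifiers for 41037 with the RefSeq table of GRCh38.p14.

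Treated and control arrays were compared two-sided by lmFit and eBayes of limma 3.58.1 (R 4.3.3), with Benjamini-Hochberg adjustment over 19775 genes or 54613 probe sets. The fit was tested on simulated data. The number of arrays limits the precision (median SE 0.064), and p-values measure the spread between these arrays, which may be technical. Members, gene lists and tests were chosen with earlier results of these data known. The naming rule gave values per array for SKP1, SKP2, CUL1, RBX1, BTRC, FBXO32, FBXW7, FBXO5 and the 6 largest rises and 6 largest falls among called members without overlap; per other list it named the 3 called genes that changed most, or the one with the smallest p. COL1A1, PTPRC, KRT14, KRT5, VIM, PECAM1, CAND1, CKS1B, CCNF, FBXW11 (per array) and CDKN1B were added after their values were seen. Figures used matplotlib 3.10.9.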

Additional observations from a re-analysis of the deposited data

How the results depend on the processing

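The counts of members higher and lower were within 1.5 times those reported with a replicate block (12 and 12), centring on array medians, repeated quantile normalization, a variance trend, genes above the median level, other probe set rules and the fit on all probe sets. Leaving out single arrays gave 9 to 14 higher and 10 to 13 lower. Outside that range, 26 were higher and 5 lower with spike-in centring, 21 higher with array weights, a fit that stopped before convergence, and 8 higher at an adjusted p under 0.01. For FBXO32, 6 probe sets were called in each fit tried, with alternatives chosen after the data were seen. FBXO11 turned to -0.074 with averaged probe sets and -0.34 with unmarked probe sets first, and FBXW2 to -0.0082 and -0.039. Deviations of same-numbered arrays correlated at r = -0.346, 0.187 and -0.017 across genes, and those of differently numbered arrays at -0.409 to 0.393. No pairing by replicate number was visible, but 3 arrays per group cannot exclude it. With the block the calls of FBXO15 and FBXO17 were lost. RMA values carry no depth or detection limit, so dim probe sets could not be marked.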

Other observations

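Transcripts of proteins that SCF ligases degrade moved in both directions. Of 23 measured, 10 rose (43.5%) and 6 fell (26.1%), against 12.1% of all genes called higher and 15.6% called lower. Their median log2 difference was 0.01, against -0.02 over all genes. Of the 23, 20 lay above the median level, where 18.8% of all genes were called higher and 25.8% lower. The share that fell was thus close to that of all genes at such levels. With spike-in centring 10 rose and 4 fell. When single arrays were left out, 9 or 10 rose and 4 to 6 fell. The list was chosen with earlier results on these arrays known. Cyclin D1 (CCND1) fell by 1.23, the mTOR inhibitor DEPTOR rose by 1.23 and the phosphatase CDC25A fell by 0.98. CDKN1B (p27), named for its tie to SKP2, rose by 0.89 where SKP2 fell by 0.25. These are RNA levels and carry no information on protein stability.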
